A study of Mus musculus with 9 samples.

Results

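Spry4, Errfi1, Dusp1 and Dusp6 encode inhibitors that act on the path from growth factor receptors to the mitogen-activated protein (MAP) kinases. They were taken as every probe whose gene symbol in the platform annotation is one of these names, which gave 4 probes, 1 per gene, out of 10012 probes on the array and 8841 genes named by a single symbol. The 4 genes were chosen by their measured levels in these same samples, that is, by the differences of overventilation and LPS from control on these 9 arrays. Their levels and differences are therefore given as a description, and no test of them is reported.

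RNA of mouse lung tissue was measured on 9 arrays in a study of ventilator-induced lung injury. The 3 overventilation samples came from lungs ventilated mechanically at a pressure of 25 cmH2O for 3 h. The 3 LPS samples came from mice injected at 3 mg/kg with lipopolysaccharide (LPS) of the E. coli serotype O127:BO, a bacterial cell wall component that triggers inflammation, and 3 samples served as control. The labels give no strain, sex, age or genotype, no time between LPS and sampling, no handling of the controls, and do not name the animal behind each sample. A p-value given for another gene therefore covers only the variation among these arrays, part or all of which could be technical. Of 8 alveolar type II cell markers on the array, 7 (Sftpa1, Sftpc, Sftpd, Abca3, Slc34a2, Napsa and Lyz2) had no array at an identified background floor, and Etv5 was at the floor on all 9 arrays. This is a weak check of the labelled tissue, since the values do not show how far above background a gene lay.

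The extracellular signal-regulated kinases ERK1 and ERK2 are the last kinases of a cascade that runs from a receptor, such as the epidermal growth factor receptor (EGFR), through RAS, RAF and MEK. Active ERK switches on genes for its own inhibitors, which limits the length and strength of the signal. Errfi1 (also called Mig6) encodes a protein that binds the kinase domain of EGFR and its relatives and blocks it. Spry4 encodes a sprouty protein that restrains signalling between the receptor and RAF. Dusp6 encodes a cytoplasmic phosphatase with a strong preference for ERK, and Dusp1 a nuclear phosphatase that acts on the stress kinases p38 and JNK as well as on ERK. In lung, EGFR signalling takes part in epithelial repair, and mechanical stretch and endotoxin are both known to activate MAP kinases.

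The 250 bases before annotated starts of Errfi1, Dusp1 and Dusp6 are shown here (RefSeq, GRCm38.p6). The cAMP response element TGACGTCA, the binding site of the CREB and ATF transcription factors, is in capitals. The window of Errfi1 is that of its second annotated start, chr4:150854820-150855069 on the plus strand, and was the only window of this gene that held the element. That of Dusp1 is chr17:26508473-26508722 on the minus strand, and that of Dusp6 chr10:99262981-99263230 on the plus strand.

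Errfi1: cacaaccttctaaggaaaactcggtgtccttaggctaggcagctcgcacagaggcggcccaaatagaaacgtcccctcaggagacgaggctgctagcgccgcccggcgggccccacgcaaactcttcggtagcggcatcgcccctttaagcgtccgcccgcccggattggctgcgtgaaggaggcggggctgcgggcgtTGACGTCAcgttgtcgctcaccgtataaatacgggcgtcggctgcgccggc

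Dusp1: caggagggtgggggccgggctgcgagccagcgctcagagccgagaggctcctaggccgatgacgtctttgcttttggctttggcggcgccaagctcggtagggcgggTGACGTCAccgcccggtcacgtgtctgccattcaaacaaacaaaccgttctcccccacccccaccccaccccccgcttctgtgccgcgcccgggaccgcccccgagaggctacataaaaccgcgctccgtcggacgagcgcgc

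Dusp6: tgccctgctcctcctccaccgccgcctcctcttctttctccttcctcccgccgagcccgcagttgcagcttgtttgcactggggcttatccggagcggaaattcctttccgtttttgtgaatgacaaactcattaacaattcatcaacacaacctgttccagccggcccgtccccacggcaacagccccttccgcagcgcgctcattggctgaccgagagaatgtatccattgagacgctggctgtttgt

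On either strand, 1 full element was found in the window of Errfi1, from 51 to 44 bases before the start, and 1 in that of Dusp1, from 143 to 136 bases before it. The letters of the element were not found in the window of Dusp6, nor before the first annotated start of Errfi1. Of all 32851 mouse promoter windows of the same length, 1.55% held the element. None of these 4 windows held the AP-1 site TGACTCA (4.46% of all windows), the ETS site CCGGAAG (6.91%) or the CArG box of serum response factor (1.47%), and these motifs share no overlap with the element found. A match is a description of the letters, and binding was not measured. Any part of the element in the levels of these genes was not tested. The promoter of Spry4 was not used here.

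The deposited values are ratios to the geometric mean of the 3 control arrays, so levels are given on the log2 scale with the control mean at 0, and the level of one gene cannot be set against that of another. A floor of low signals lay at ratios that differed between arrays, from 0.709 on control array 1 to 2.222 on overventilation array 3, and held 27.8% to 42.4% of probes per array. Of all probes, 5710 passed the filter on low values and were tested, and all 4 inhibitor probes were among them without any array at an identified floor, so their height above background is unknown. Overventilation array 3 held 110 tested values that stood alone by more than 1.5 above every other array, against at most 6 on any other array, and LPS array 2 held 291 that stood alone below. Across all tested probes, limma called 0 (0%) for overventilation against control at an adjusted p under 0.05 (850 at an unadjusted p under 0.05), 0 for LPS against control (118) and 0 for overventilation against LPS (543).

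The receptor inhibitor Errfi1 was higher in ventilated lungs than in all others in the deposited scaling. It lay at 2.14, 2.07 and 1.82 on overventilation arrays 1 to 3, at -0.87, 1.28 and 1.49 on LPS arrays 1 to 3, and at -0.35, 0.05 and 0.31 on control arrays 1 to 3. All ventilated samples were above all others, while the LPS samples were split, with arrays 2 and 3 above every control and array 1 below every control. The means were 2.01 ± 0.17 after overventilation, 0.63 ± 1.31 after LPS and 0 ± 0.33 in controls (SD, n = 3 each). Overventilation stood 4.03-fold above control and 2.60-fold above LPS, and LPS 1.55-fold above control. The log2 difference of LPS from control, 0.63, rested on single arrays, with 1.38 without LPS array 1, 0.31 without array 2 and 0.20 without array 3, and that between overventilation and LPS was 0.63 without LPS array 1, against 1.38 with it. The SD of 0.17 among ventilated lungs was low for this array set, since only 9.53% of tested probes had a smaller one, and the SD of 1.31 after LPS was high, with 92.5% of probes below it. Both the evenness among ventilated lungs and the separation from LPS depended on the scaling of overventilation array 3. With quantile normalization Errfi1 lay at 1.85, 1.73 and 0.94 on overventilation arrays, against -1.33, 1.11 and 1.63 on LPS arrays. With each array divided by its own floor (aligned floors) it lay at 2.17, 2.39 and 0.67, against -0.81, 1.3 and 1.5 on LPS arrays, so that array 3 fell among the LPS samples in both settings and stayed above the controls.

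Spry4, the inhibitor between receptor and RAF, was also higher in ventilated lungs. It lay at 1.38, 1.47 and 2.96 on overventilation arrays 1 to 3, at -0.20, 0.78 and 0.53 on LPS arrays, and at -0.59, 0.49 and 0.10 on control arrays. Every ventilated sample exceeded every LPS and control sample, and the LPS and control samples overlapped. Between LPS and control arrays of the same number, which deviated together across probes, Spry4 was higher on the LPS array by 0.39, 0.29 and 0.43. No label pairs these arrays, and how many other probes were higher at all numbers was not counted. The means were 1.94 ± 0.89, 0.37 ± 0.51 and 0 ± 0.55 (SD, n = 3 each) for overventilation, LPS and control. Overventilation stood 3.84-fold above control and 2.96-fold above LPS. Much of the mean came from overventilation array 3, without which the log2 difference from control was 1.43. The height of that array above the others came with the deposited scaling too, since Spry4 lay at 1.30, 1.36 and 1.62 on overventilation arrays with quantile normalization and at 1.41, 1.79 and 1.81 with aligned floors, more even than Errfi1 in both.

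On that same array the markers of alveolar type I cells, the thin gas exchange cells of the lung, had a median of 3.06, against 0.51 and 0.45 on overventilation arrays 1 and 2, 0.25 to 1.00 on LPS arrays and -0.45 to 0.11 on controls. This list had 4 of its 8 genes on the array, all tested. On overventilation array 3 Ager lay at 4.48, Aqp5 at 3.15, Cav1 at 2.96 and Pdpn at 0.63, the last below its 0.71 on overventilation array 1, and Aqp5 was at the floor on overventilation arrays 1 and 2. Single markers of other cell types were as high on array 3, with Lyz2 at 4.77, Sftpd at 4.12 and the smooth muscle gene Acta2 at 2.99. The medians of the other tissue and cell type lists with 3 or more tested genes lay between -1.24 and 0.13 there. In bulk tissue more cells of a type and more RNA per cell cannot be told apart, and the part of these markers in the level of Spry4 was not tested. On overventilation arrays 1 and 2 Spry4 lay above every LPS and control sample too, as did Ager, at 1.19 and 1.14. Aqp5, Cav1 and Pdpn did not do so on each of these arrays.

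Dusp1, the nuclear phosphatase, showed the smallest of the differences without overlap. It lay at 0.88, 0.77 and 1.48 on overventilation arrays, at -0.33, 0.33 and 0.15 on LPS arrays and at 0.05, -0.19 and 0.14 on control arrays. Ventilated samples were above all others, and LPS samples lay on both sides of the controls. The means were 1.05 ± 0.38 after overventilation, 0.05 ± 0.34 after LPS and 0 ± 0.17 in controls (SD, n = 3 each), which puts overventilation 2.06-fold above control and 2.00-fold above LPS. The difference of LPS from control, 0.05, took either sign when single arrays were left out (-0.09 to 0.24). This separation depended on the scaling between arrays. When each array was divided by its own floor, Dusp1 lay at 0.91, 1.09 and 0.33 on overventilation arrays and at 0.55, -0.29 and -0.26 on control arrays, so that overventilation array 3 fell below control array 1.

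The ERK phosphatase Dusp6 differed from the other three. It lay at -0.03, 2.82 and -0.34 on overventilation arrays 1 to 3, at 1.33, 2.35 and 2.31 on LPS arrays, and at -1.0, 1.16 and -0.16 on control arrays. The LPS samples were all above the controls, by 0.18 at the closest, whereas the ventilated samples were split, with array 2 the highest of all 9 and arrays 1 and 3 inside the control range. The means were 0.82 ± 1.74 after overventilation, 2.00 ± 0.58 after LPS and 0 ± 1.09 in controls (SD, n = 3 each). LPS stood 4.0-fold above control, and overventilation 1.76-fold above control with an SD larger than the difference itself. With quantile normalization LPS and control samples overlapped for Dusp6, and without overventilation array 2 the log2 difference between overventilation and control turned to -0.19. Without that array the ventilated samples also lay below every LPS sample, with a log2 difference of -2.19, against -1.18 and overlapping samples with it. The difference between overventilation and control was 0.31 without control array 1, and 1.39 without control array 2 or without overventilation array 3.

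**Figure D1:**
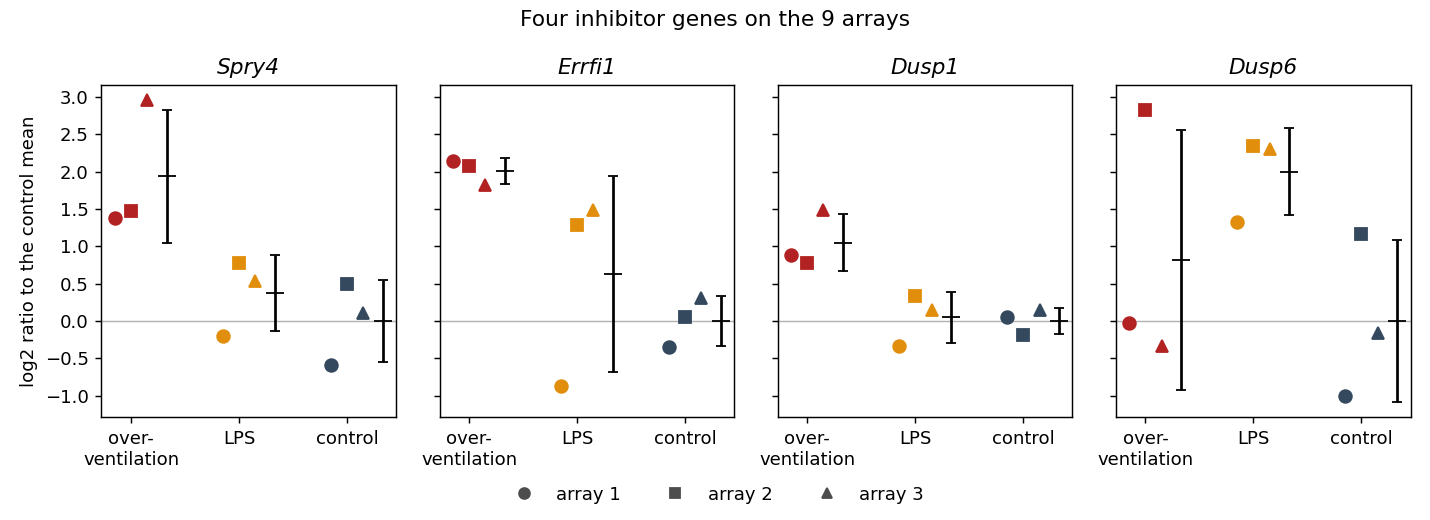
Log2 ratio to the control mean (vertical axis) of Spry4, Errfi1, Dusp1 and Dusp6 on the 9 arrays, with overventilation, LPS and control from left to right, marker shapes for arrays 1 to 3, and a black dash and bar for the group mean ± SD (n = 3). In this scaling, as deposited, overventilated lungs lie above all others for Spry4, Errfi1 and Dusp1, whereas aligned floors make Errfi1 overlap with LPS and Dusp1 with both groups. LPS lungs lie above controls for Dusp6, but overlap them with quantile normalization, which makes Errfi1 overlap with LPS too. For Dusp6 overventilation array 2 is at 2.82 and the others at -0.03 and -0.34.

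The wide spread of Dusp6 among ventilated lungs was shared by few probes. Overventilation array 2 exceeded arrays 1 and 3 by 2.86 at Dusp6, and by more than 2.5 at 95 of 5710 tested probes, a limit chosen after the values were seen. Another set of 139 probes was low on overventilation arrays 1 and 3, by over 1.5 relative to all remaining arrays. Dusp6 was not one of them, since control array 1 was lower still, and neither were Spry4, Errfi1 and Dusp1. In controls Dusp6 had an SD of 1.09, larger than that of 94.3% of tested probes.

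Set among all tested probes, the differences from control had these places. For overventilation against control, 60 probes (1.05%) had a larger difference than Errfi1, 69 (1.21%) than Spry4, 392 (6.87%) than Dusp1 and 604 (10.6%) than Dusp6. For LPS against control the order of the genes was another: 9 probes (0.158%) had a larger difference than Dusp6, 370 (6.48%) than Errfi1, 848 (14.9%) than Spry4 and 2246 (39.3%) than Dusp1. For overventilation against LPS, 104 probes lay above Spry4, 168 above Errfi1, 418 above Dusp1 and 5398 above Dusp6. Both comparisons with control use the same 3 control arrays.

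**Figure D2:**
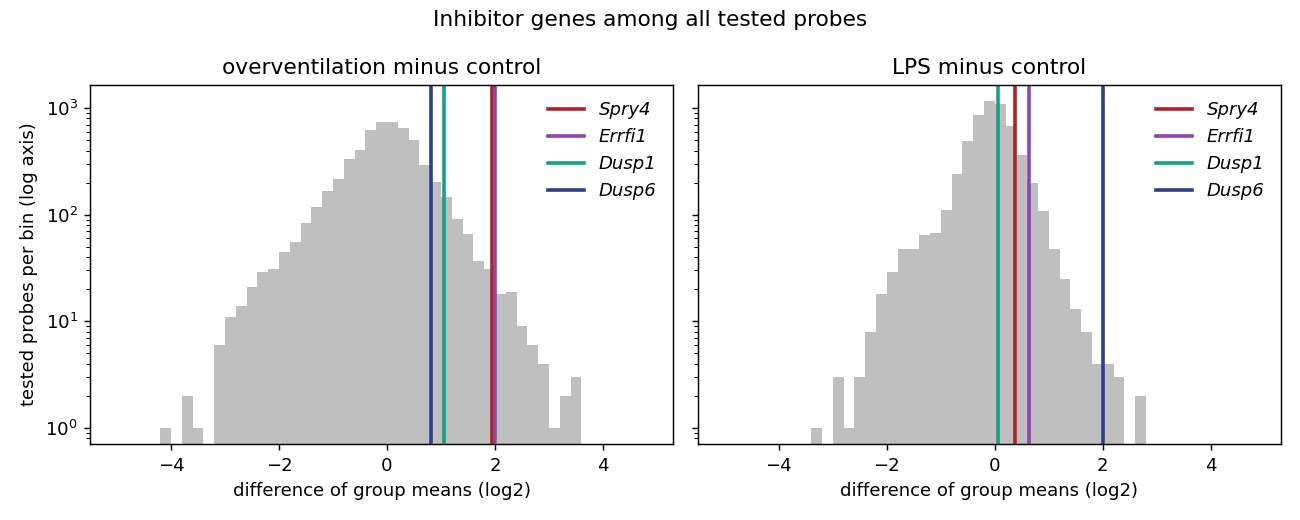
Number of tested probes (log axis) by difference of group means on the log2 scale, for overventilation minus control at left and LPS minus control at right, with coloured lines at the 4 inhibitor genes. In the first comparison Errfi1 and Spry4 lie at 2.01 and 1.94, and in the second Dusp6 lies alone at 2.00 with the other genes between 0.05 and 0.63.

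Ventilated samples did not overlap the controls and were higher at 3 of the 4 genes, Spry4, Errfi1 and Dusp1, where 9.19% of all tested probes were so, and the same 3 genes did not overlap the LPS samples (5.73% of all tested probes). LPS samples did not overlap the controls and were higher at 1 gene, Dusp6 (2.24% of all tested probes). The genes were chosen for these differences, so the counts describe the choice. Errfi1 overlapped between overventilation and LPS with quantile normalization or aligned floors, and Dusp1 between overventilation and both other groups with aligned floors. Dusp6 overlapped between LPS and control with quantile normalization, with LPS array 1 at 1.55 and control array 2 at 1.81. In the deposited scaling the ordering of groups was overventilation first for Spry4, Errfi1 and Dusp1, with LPS and control overlapping, and LPS before control for Dusp6, with overventilation overlapping both. By array number, LPS minus control was -0.52, 1.23 and 1.18 for Errfi1, -0.38, 0.52 and 0.01 for Dusp1 and 2.33, 1.19 and 2.47 for Dusp6. It was thus positive at all numbers for Spry4 and Dusp6 and took either sign for Errfi1 and Dusp1. No label pairs the arrays by number, and the share of all tested probes positive at all numbers was not counted.

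Array by array, Spry4, Errfi1 and Dusp1 correlated more with each other than with Dusp6. The Pearson correlation over the 9 arrays was 0.92 between Spry4 and Dusp1, 0.82 between Errfi1 and Dusp1 and 0.79 between Spry4 and Errfi1, against 0.05, 0.27 and -0.16 between Dusp6 and Spry4, Errfi1 and Dusp1. These arrays share their group, so group differences, for which the genes were chosen, enter the values. Of 5088 other tested genes, 78 correlated more with Spry4 than Dusp1 did, and 447 more than Errfi1 did. With Errfi1, 99 genes correlated more than Dusp1 did. With the group means taken out the first 3 correlations were 0.72, 0.50 and 0.39, and those of Dusp6 with Spry4, Errfi1 and Dusp1 were 0.02, 0.36 and -0.35. Within groups Dusp6 and Errfi1 were thus about as alike as Spry4 and Errfi1. LPS array 1 was the lowest LPS sample for all 4 genes, and the share of all tested probes with this order was not counted. That array also stood apart from the other LPS arrays across all tested probes. Its correlation was -0.043 with LPS array 2 and -0.031 with LPS array 3, against 0.35 between arrays 2 and 3. Its deviations from the group means correlated at 0.497 with those of control array 1 and at 0.496 with those of overventilation array 1. Without LPS array 1, the other LPS samples lay above all controls for each of Spry4, Errfi1 and Dusp1, by a narrow margin for Spry4 and Dusp1.

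Genes with the most similar course were sought among 5088 other tested genes by the same correlation over the 9 arrays, as a description. Closest to Errfi1 were Inhba (0.975), which encodes the activin A subunit, Necab2 (0.969), the aldo-keto reductase gene Akr1b8 (0.968), Hnrnpdl (0.954) and Kti12 (0.954). Inhba lay at 1.48, 1.28 and 1.28 on overventilation arrays, at -0.60, 0.52 and 0.92 on LPS arrays and at -0.41, 0.30 and 0.11 on control arrays, the same division as Errfi1, with LPS array 1 below every control. Closest to Spry4 were Pop7 (0.984), Ctla2a (0.977), the glutathione peroxidase gene Gpx2 (0.974), Ncoa6 (0.969) and Tnfrsf12a (0.968), the receptor gene of the cytokine TWEAK.

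For Dusp1 the closest genes were Tnfrsf12a (0.972), Sapcd1 (0.968), B3galnt1 (0.963), the stress-induced transcription factor gene Atf3 (0.959) and the glutathione transferase gene Gsta2 (0.953). Atf3 lay at 1.58, 1.91 and 4.56 on overventilation arrays, at -0.74, 1.05 and 0.97 on LPS arrays and at -0.08, -0.08 and 0.16 on control arrays. Closest to Dusp6 was Eif2ak2 (0.939), which encodes the interferon-induced kinase PKR, followed by Marchf7 (0.919), Tfr2 (0.897), Pbrm1 (0.897) and Gfra3 (0.896). Eif2ak2 lay at -0.33, 1.08 and -0.33 on overventilation arrays, at 0.93, 1.5 and 1.64 on LPS arrays and at -0.33, 0.51 and -0.17 on control arrays, and so had the same high overventilation array 2 and high LPS group as Dusp6. Its 3 values of -0.33 stand for the common floor to which low values were raised and are upper bounds, as are 3 values of Marchf7, so both correlations rest in part on floor values.

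The other parts of the pathway were read from 9 lists, which held 123 genes, 90 of them on the array and 49 tested. The lists were chosen with earlier results of these data known, so the shares given for them are a description. No gene of these lists passed limma at an adjusted p under 0.05 in any of the 3 comparisons, and the lowest adjusted p was 0.193 for overventilation against control and 1 for LPS against control. In overventilated lungs 8 of the 49 (16.3%, against 9.19% of all tested probes) were higher than controls without overlap and 1 was lower (2.04%, against 10.5%), with a median log2 difference of 0.26, against -0.01 over all tested probes. After LPS 0 of the 49 were higher without overlap and 1 was lower, with a median of 0.05, against -0.05 over all tested probes, and 4.08% of all tested probes were lower without overlap.

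Among the ligands of EGFR, Ereg, which encodes epiregulin, was higher in ventilated lungs. It lay at 2.47, 1.98 and 1.03 on overventilation arrays, at -0.06, 1.04 and 0.38 on LPS arrays and at 0.79, -0.13 and -0.66 on control arrays. Ventilated and control samples did not overlap, and overventilation stood 3.55-fold above control with a limma adjusted p of 0.201. Tgfa, the transforming growth factor alpha gene, had a log2 difference of 0.31 (adjusted p = 0.83). Hbegf, which encodes heparin-binding EGF, gave no usable difference, since it was at the floor on overventilation array 2, LPS array 1 and control array 3 and at 1.65 to 3.45 on the others. Egf was at the floor on 8 arrays and Epgn on 5, and neither was tested.

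The receptor gene Egfr lay at 0.38, 0.07 and 0.38 on overventilation arrays, at -0.10, 0.50 and 1.05 on LPS arrays and at 0.39, -0.18 and -0.21 on control arrays. All 3 groups overlapped, with a log2 difference of 0.27 for overventilation (adjusted p = 0.784) and 0.48 for LPS (adjusted p = 1). Of the 3 tested FGF receptor and ligand genes, Fgf18, which encodes a fibroblast growth factor, was lower after LPS than in controls without overlap, with a log2 difference of -0.99 (limma adjusted p = 1). The cascade from adaptors to ERK had 9 tested genes of 23 listed, with a median log2 difference of -0.05. All 9 overlapped between ventilated and control samples, where 9.19% of all tested probes were higher and 10.5% lower without overlap. With 9 genes this says little beside these shares.

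In the cascade of the stress kinases, which Dusp1 opposes, 7 of 16 listed genes were tested. Map2k3, which encodes the p38 activator MKK3, lay at 1.47, 2.36 and 4.25 on overventilation arrays, at -0.05, 2.13 and 0.93 on LPS arrays and at -0.28, 0.55 and -0.27 on control arrays. Ventilated samples were above all controls, 6.46-fold on average, with a limma adjusted p of 0.201. Mapk10, the gene of a JNK kinase, was lower in ventilated lungs without overlap, by a log2 difference of -0.41 (adjusted p = 0.595), and the median of the 7 genes was -0.23.

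The close relatives of the 4 genes did not follow a common course, and are named here as family members, in part after their values were seen. Among MAP kinase phosphatases, Dusp8, whose product acts on stress kinases, lay at 0.80, 0.70 and 1.69 on overventilation arrays, at -0.02, 0.37 and 0.39 on LPS arrays and at 0.10, 0.02 and -0.12 on control arrays. Ventilated samples exceeded all others, with a log2 difference from control of 1.06 (limma adjusted p = 0.215), and a second probe of Dusp8 gave 1.31 (adjusted p = 0.25). The differences of Dusp4 and Dusp10 were -0.34 and 0.63, both with overlapping samples. Among sprouty genes, Spry1 had a difference of -0.30, and Spry2 lay at -2.85, 0.95 and -1.90 on overventilation arrays, as one of the set of 139 probes above, against -0.38, 0.52 and 0.24 on LPS arrays and 0.15, 0.11 and -0.26 on control arrays. The list of other inhibitors of RAS and EGFR signalling, with 8 tested genes of 22, had a median of 0.06. Of the 8, 0 were separated between ventilated and control samples, where 9.19% of all tested probes were higher and 10.5% lower. With so few genes a count of 0 says little beside these shares.

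**Figure D3:**
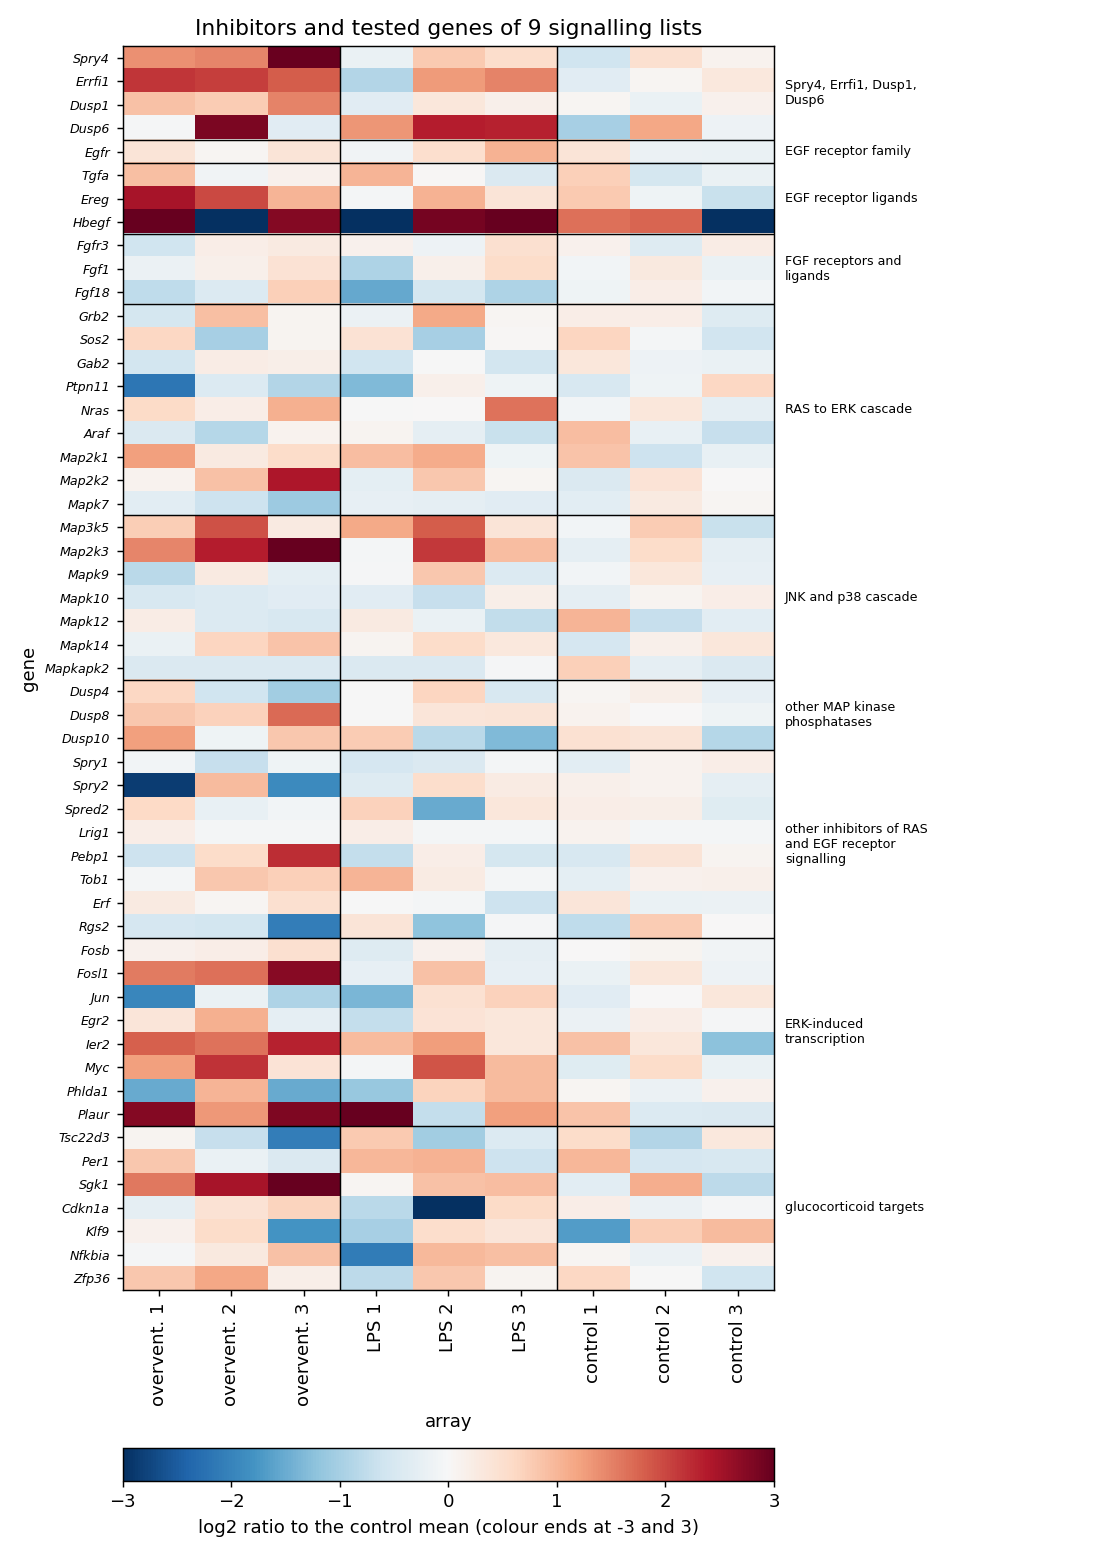
Heat map of the log2 ratio to the control mean, in colour from blue (low) to red (high) with the colour ends at -3 and 3, for the 4 inhibitor genes at the top and the tested genes of 9 signalling lists (rows), on the overventilation, LPS and control arrays (columns). Spry4, Errfi1 and Dusp1 are red on all overventilation arrays, as are Fosl1, Ier2, Plaur, Sgk1, Map2k3, Ereg and Dusp8, and most rows of the RAS to ERK cascade are pale.

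Genes that ERK activity is known to induce made up 4 of these 8 higher genes. The list held 22 genes, 21 of them on the array, but only 8 passed the filter and were tested. Fos, Junb, Egr1, Egr3 and Ier3 of this list were not among the tested genes. The list was chosen with earlier results of these data known, so its shares are a description. Its median log2 difference was 0.83 and ranged from 0.39 to 1.17 over 15 alternative settings, with 0.39 when no filter was applied. Of the 8, 4 were higher in ventilated lungs than in controls without overlap (9.19% of all tested probes were) and 0 were lower (10.5% of all tested probes). The 4 were the AP-1 subunit gene Fosl1, with a difference of 1.99 (limma adjusted p = 0.193), the immediate early gene Ier2, with 1.91 (0.201), the urokinase receptor gene Plaur, with 2.28 (0.386), and the AP-1 subunit gene Fosb, with 0.27 (0.718). The other 4 overlapped the controls, with differences of 1.27 for Myc (0.342), 0.39 for Egr2 (0.742), -0.68 for Phlda1 (0.728) and -1.03 for the AP-1 subunit gene Jun (0.469). None of the 8 passed the test. The transcription factor genes Etv4, Etv5 and Ets2 of the same list were at the floor on all 9 arrays. Fosl1, Ier2 and Fosb were higher than the LPS samples without overlap as well, where 5.73% of all tested probes were. Fosb was so by a narrow margin, with 0.14 on overventilation array 1 against 0.12 on LPS array 2.

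Dusp1 is also a known target of the glucocorticoid receptor, so a list of 9 other such genes was read beside it, of which 7 were tested. Sgk1, the gene of a glucocorticoid-induced kinase, lay at 1.59, 2.47 and 3.45 on overventilation arrays, at 0.07, 0.87 and 0.92 on LPS arrays and at -0.31, 1.09 and -0.79 on control arrays. Ventilated samples lay above all others, 5.66-fold above control (limma adjusted p = 0.193). Tsc22d3, which encodes the glucocorticoid-induced leucine zipper, had a log2 difference of -0.90 and Per1, a circadian clock gene that glucocorticoids induce, one of 0.06, both with overlapping samples. The differences of Zfp36, Nfkbia, Cdkn1a and Klf9 were 0.71, 0.38, 0.27 and -0.37, with overlapping samples too. A second probe of Klf9 gave 0.83 (limma adjusted p = 0.375). Of the 7 genes, 5 had a positive difference and 2 a negative one. The median of the list was 0.27.

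**Figure D4:**
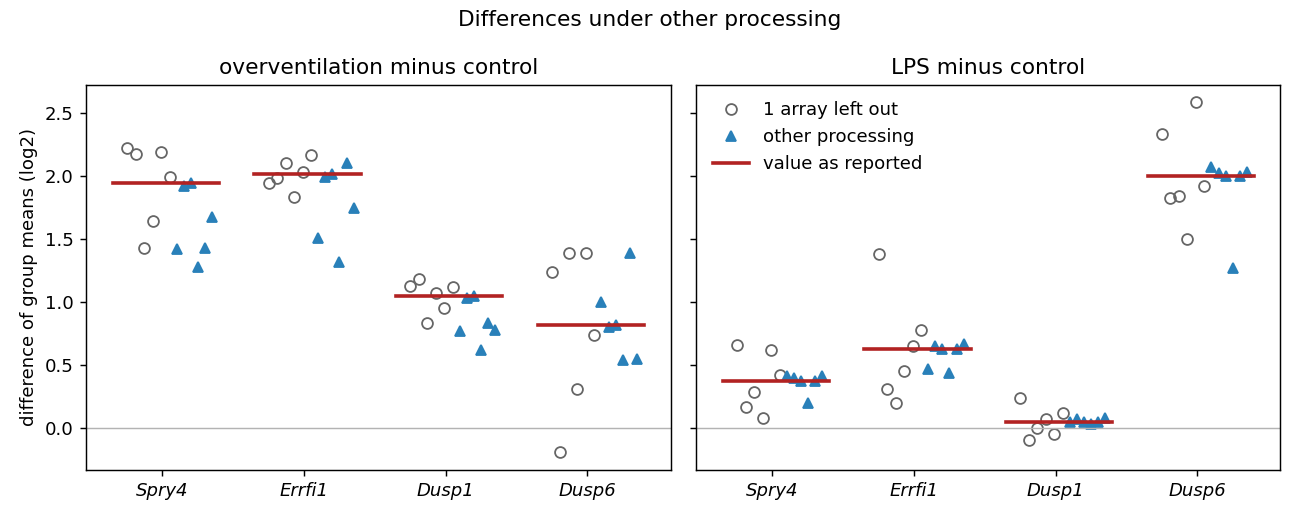
Difference of group means on the log2 scale for the 4 inhibitor genes, overventilation minus control at left and LPS minus control at right, as reported (red line), with 1 array left out (open circles) and under other processing (blue triangles). For overventilation minus control, Spry4, Errfi1 and Dusp1 stay above 0 in every setting shown, between 0.62 and 2.22, while Dusp6 ranges down to -0.19.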

How the data were processed

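The members and all gene lists were chosen with earlier results of these data known. The deposited table holds, for 10012 probes on 9 arrays, linear ratios to the geometric mean of the 3 control arrays, as tested on the values (largest deviation of the control log2 mean from 0, 2.5e-09). How the authors made these deposited ratios is not given in the sources used here. At 4690 probes 2 or more arrays were at a floor (tolerance 1e-06, log2). There, values were raised to the highest floor (a ratio of 2.222) with the control mean then reset to 0. Probes above it on 3 or more arrays, or with no such pair of arrays, were tested (5710). The fit used limma's lmFit and eBayes (version 3.58.1, R 4.3.3, two-sided), 9 arrays sharing 1 spread per probe, with Benjamini-Hochberg adjustment and a threshold of 0.05. Simulated data were used only to check that the fit recovers known differences on average. Their noise was independent between arrays, so the error rate with arrays that deviate together was not checked.

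The platform annotation gave a single gene symbol for 8983 probes. Where a gene had several probes, the probe above the floor on most arrays, then the lowest number, was used. Named by rule were the 4 members, up to 4 genes per list and comparison with the largest differences without overlap, EGFR and its ligands, and the 5 genes most like each member. Other list members and cell type markers were named outside this rule, in part after their values were seen. The number of arrays limits the precision. Same-numbered LPS and control arrays deviated together (correlations 0.497, 0.247 and 0.199), which no label explains. For overventilation and control these were 0.508, 0.133 and 0.033. Alternatives were quantile normalization, median scaling, 3 other treatments of the floor, no filter, array weights, a replicate block, leaving out each array and, chosen after seeing the data, aligned floors.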

Additional observations from a re-analysis of the deposited data

How the results depend on the processing

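For overventilation minus control, the log2 difference of Errfi1 was 1.51 with quantile normalization, 1.32 with an offset of 1 in place of the floor and 1.74 with floors aligned, and that of Dusp1 was 0.62 with the offset. For overventilation minus LPS, Dusp1 was at 0.59 with the offset. An offset compresses every difference by its construction. Otherwise the differences of the 4 genes moved by less than 1 SD. Aligned floors, chosen after seeing the data, moved the median of all probes to -0.20 for overventilation minus control and to -0.14 for overventilation minus LPS.

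With 1 array left out, differences for overventilation minus control ranged from 1.43 to 2.22 for Spry4, 1.83 to 2.16 for Errfi1, 0.83 to 1.18 for Dusp1 and -0.19 to 1.39 for Dusp6. For LPS minus control they ranged from 0.08 to 0.66, 0.20 to 1.38, -0.09 to 0.24 and 1.5 to 2.58 for the same genes, with the highest value of Errfi1 without LPS array 1. For overventilation minus LPS they ranged from 1.05 to 1.85, 0.63 to 1.81, 0.78 to 1.14 and -2.19 to -0.61.

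The number of probes called by limma at an adjusted p under 0.05 was 0 in each comparison. It ranged from 0 to 290 with 1 array left out for overventilation minus control, from 0 to 1 for LPS minus control and from 0 to 226 for overventilation minus LPS. The 290 and the 226 were called without overventilation replicate 2, the cause was not tested, and 1 probe was called without control replicate 3 in each comparison with control. Without the filter 1 was called for overventilation minus control. With the replicate block 0 probes were called in each comparison, and it cannot change the differences of group means in this balanced design. Over 15 alternatives, 3 list medians for overventilation minus control kept their sign. These were other MAP kinase phosphatases (0.21 to 1.02), ERK-induced transcription (0.39 to 1.17) and glucocorticoid targets (0.01 to 0.55). The median of the EGF receptor ligand list ranged from 0.01 to 1.77. With 3 tested genes its reported value of 0.94 was that of Hbegf, which gave no usable difference, so its sign is not read. Medians of the remaining lists with 3 or more tested genes took either sign.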
